A study of Mus musculus with 8 samples.

Results

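The genes described here are the 52 genes that copy DNA in S phase or supply that work, namely the origin recognition complex, the MCM helicase with its loaders and activators, the polymerases with their clamp, the enzymes that finish the lagging strand, the enzymes that make deoxynucleotides and a few genes that act with them. They were picked by gene symbol, and all 52 were present among the 36255 genes of the deposited count table. All 52 also passed the filter on low counts, which left 16542 genes for testing. RNA with poly(A) tails had been sequenced from mouse embryonic stem (ES) cells and from embryoid bodies at day 2 (EBd2), the aggregates in which ES cells start to differentiate. The 4 groups were EBd2 labelled Skp1a KO (lots 1 and 2), EBd2 with floxed Skp1a (fl/fl, lots 1 and 12), ES cells labelled Skp1a KO (lots 1 and 12) and fl/fl ES cells (lots 1 and 2), with 2 libraries each. Skp1a encodes the adaptor of SCF ubiquitin ligases, and the question set by the study is how expression differs between the genotypes in ES cells and in embryoid bodies. How and when the gene was deleted, and whether the lots are separate cultures or clones, is not stated in the labels. The p-values therefore rest on how far these libraries vary, and that variation may be technical. Beside lot 1, KO EBd2 and fl/fl ES cells had lot 2, while fl/fl EBd2 and KO ES cells had lot 12. Each comparison of genotypes or of stages below thus also sets lot 2 against lot 12.

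In replication, the origin recognition complex together with CDC6 and CDT1 loads the ring of MCM2 to MCM7 onto DNA, and geminin blocks that loading by binding CDT1. CDC7 with DBF4, CDC45 and the GINS complex then turn the loaded ring into a moving helicase. Behind the helicase, polymerase alpha with primase makes the primers, and polymerase delta and polymerase epsilon extend them on the PCNA clamp. Ribonucleotide reductase, thymidylate synthase and thymidine kinase supply the deoxynucleotides, and E2F factors drive transcription of many of these genes. SCF ligases are known, mostly from human cells, to mark replication proteins for destruction, for example CDT1 through SKP2 and RRM2 and CDC6 through cyclin F. That control acts on proteins, which counts of RNA do not measure.

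Total counts were 9260644 and 10055667 in KO EBd2, 7858452 and 9133497 in fl/fl EBd2, 22459935 and 21559558 in KO ES cells, and 23343471 and 21545868 in fl/fl ES cells. The 52 genes took between 0.735% and 0.783% of each library's counts, and single counts ran from 32 for E2f2 to 12207 for Rrm2. Skp1a itself had 286 and 289.6 CPM (counts relative to library size, scaled by TMM factors) in KO EBd2, against 401 and 389 CPM in fl/fl EBd2, and 369 and 361 CPM in KO ES cells, against 420.2 and 430.3 CPM in fl/fl ES cells. Its RNA was lower in KO EBd2 (-0.46 ± 0.04, adjusted p = 5.13e-07) and in KO ES cells (-0.22 ± 0.03, adjusted p = 0.00073) but was not lost, so KO is used here as the name on the label. The tissue field calls every KO library an ES cell and every fl/fl library an embryoid body, whereas the titles cross genotype with stage, and the groups follow the titles. Formative epiblast markers, whose rise marks the exit from the ES cell state, summed to 554 and 567 CPM in KO EBd2 and 2581 and 2766 CPM in fl/fl EBd2, above 331 and 348 CPM in KO ES cells and 401 and 398 CPM in fl/fl ES cells. Every fold change below is a log2 value ± standard error from edgeR's quasi-likelihood test, and a gene is called changed at a Benjamini-Hochberg adjusted p under 0.05 over all 16542 genes.

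In EBd2, the 6 genes of the MCM helicase were all lower in KO than in fl/fl, with Mcm2 at 43.5% of its fl/fl level, while the 4 genes of deoxynucleotide supply, Rrm1, Rrm2, Tyms and Tk1, were all higher. The loader Cdt1 and the polymerase delta genes Pold1, Pold2 and Pold3 moved with the MCM genes, and the histone mRNA binding gene Slbp moved with the nucleotide genes. Of the 52 genes, 16 were called higher and 26 lower in KO EBd2, and 10 were not called. Across all genes tested, 62.2% were called in this comparison, 30.7% higher and 31.5% lower, so a call by itself sets no gene apart. With libraries scaled by total counts alone, which shifts the median log2 change of all genes by 0.227, the split was 25 higher and 18 lower, and the MCM and nucleotide genes kept their directions. The median log2 change of the 52 genes was -0.19, against 0.00397 over all genes tested. Regardless of sign it was 0.370 for the 52 genes and 0.505 over all genes, so the larger share called does not mean larger changes. Changes of 2-fold or more were called for 1 gene higher, E2f2, and 1 lower, Mcm2, against 14.9% and 6.17% of all genes. The KO and fl/fl libraries did not overlap for 19 genes higher and 29 lower, against 40.2% and 39.6% of all genes. In bulk RNA, fewer cells in S phase and less RNA per cell cannot be told apart.

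Markers of other cell types moved with the same comparison. Markers of fibroblast feeder cells, which some ES cultures are grown on, summed to 461 and 428 CPM in KO EBd2 and 114 and 120.1 CPM in fl/fl EBd2, and 13 of the 15 tested were higher in KO. In ES cells the same list summed to 1223 and 1319.9 CPM in KO and 1081 and 1037 CPM in fl/fl, with 9 of 15 higher in KO. Its members Lum and Dcn were near 0, at no more than 0.371 CPM for Lum and 1.34 CPM for Dcn in any library. Endoderm markers summed to 1145 and 1132 CPM in KO EBd2 and 474 and 518 CPM in fl/fl EBd2, with 10 of 11 higher and Afp at no more than 0.577 CPM in any library. All 9 formative epiblast markers were lower in KO EBd2. Primitive streak markers summed to 163 and 169 CPM in KO EBd2 and 28.2 and 27.2 CPM in fl/fl EBd2, with 5 of 8 called higher, and trophectoderm markers to 699.9 and 686 CPM in KO EBd2 and 276 and 269.8 CPM in fl/fl EBd2, with 6 of 7 higher. General pluripotency markers summed to 3612 and 3453 CPM in KO EBd2 and 3784 and 3642 CPM in fl/fl EBd2, with 5 of 12 higher and 5 lower. The mitochondrial share of counts, a sign of RNA and cell quality, was 3.15% and 3.24% in KO EBd2, against 2.70% and 2.28% in fl/fl EBd2. In ES cells it was 2.43% and 2.42% in KO, against 1.76% and 1.73% in fl/fl. The part of these cells and of the mitochondrial share in the replication results was not tested.

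**Figure D1:**
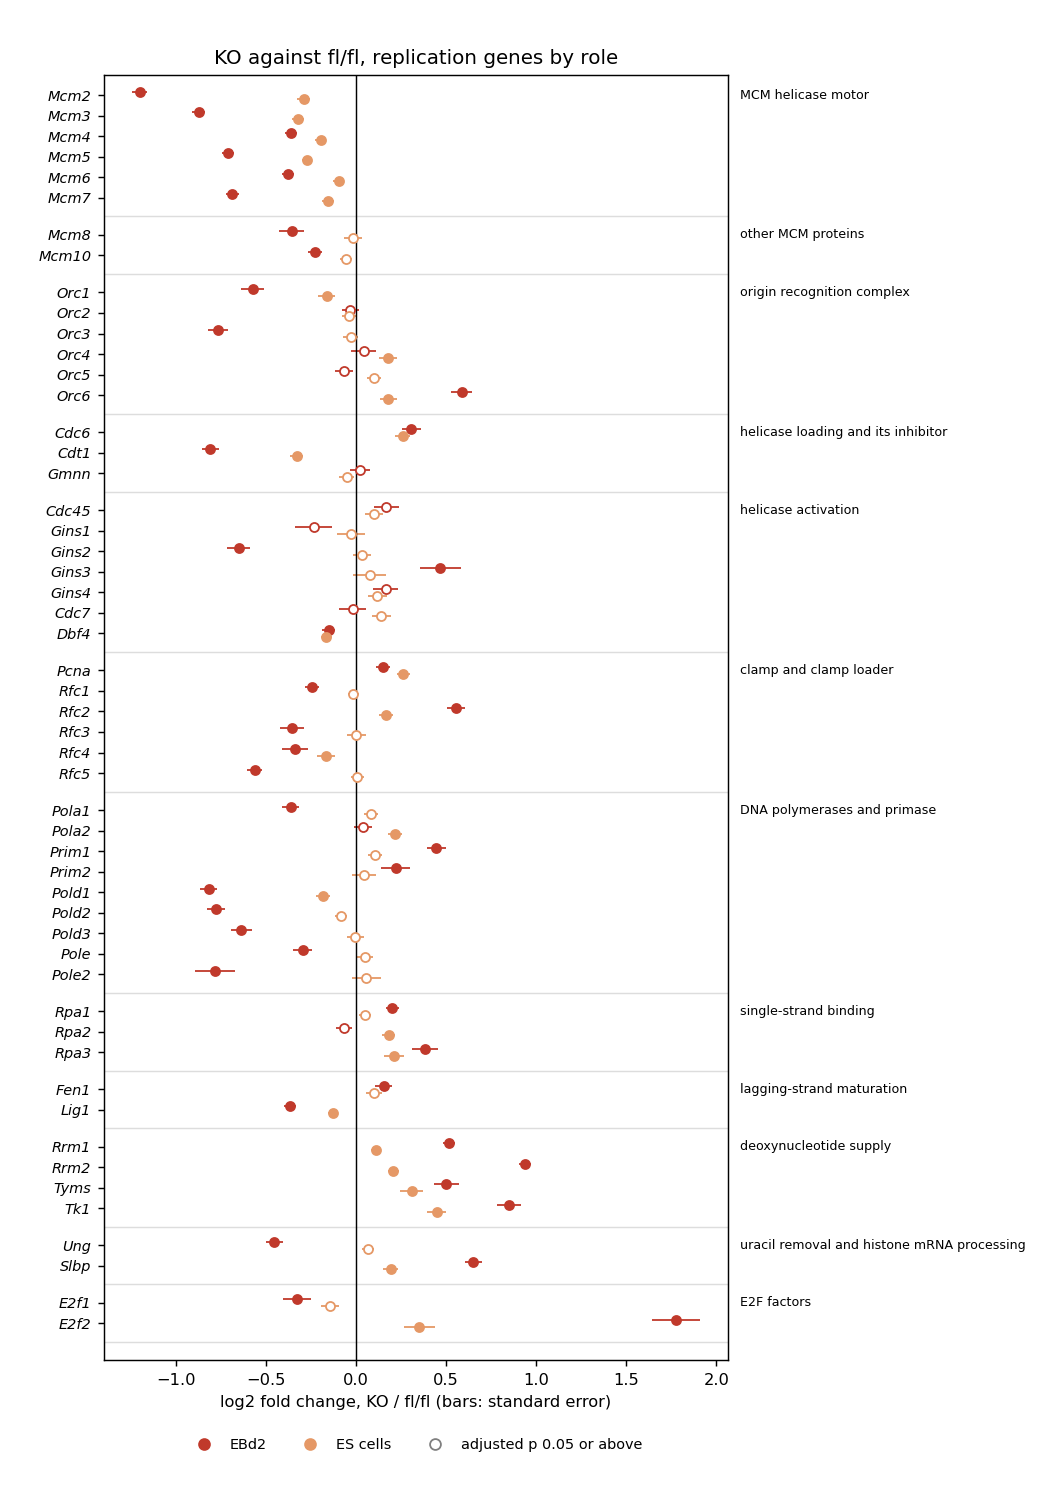
Log2 fold change of KO over fl/fl for each of the 52 genes, grouped by role, in EBd2 (red) and ES cells (orange). Points are estimates from 2 libraries per group, bars are standard errors, and open points have an adjusted p of 0.05 or above. All MCM2 to MCM7 genes lie left of 0 and all 4 nucleotide supply genes right of 0 at both stages.

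The MCM2 to MCM7 proteins form the ring that unwinds DNA at the fork. Mcm2 had 255 and 236 CPM in KO EBd2, against 561 and 567 CPM in fl/fl EBd2, and 351 and 348 CPM in KO ES cells, against 428 and 427 CPM in fl/fl ES cells. KO EBd2 was thus the lowest group and fl/fl EBd2 the highest, with no overlap between any groups, and the log2 change in EBd2 was -1.20 ± 0.04 (adjusted p = 8.69e-10). Mcm3 had 254 and 251 CPM in KO EBd2, against 460.4 and 463 CPM in fl/fl EBd2, and 362 and 376 CPM in KO ES cells, against 456 and 466 CPM in fl/fl ES cells. Its change in EBd2 was -0.87 ± 0.04 (adjusted p = 3.59e-09), and the 2 fl/fl groups overlapped. Mcm5 had 234 and 232 CPM in KO EBd2, against 382 and 381 CPM in fl/fl EBd2, and 309 and 303 CPM in KO ES cells, against 371 and 368 CPM in fl/fl ES cells. Again KO EBd2 was lowest, with a change of -0.71 ± 0.03 (adjusted p = 9.57e-09).

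Mcm7 had 331 and 325 CPM in KO EBd2, against 532 and 522 CPM in fl/fl EBd2, and 426 and 409.7 CPM in KO ES cells, against 459 and 473 CPM in fl/fl ES cells, a change of -0.68 ± 0.04 in EBd2 (adjusted p = 2.66e-08). Mcm4 and Mcm6 changed least of the 6 in EBd2. Mcm4 had 266 and 255 CPM in KO EBd2, against 334 and 334 CPM in fl/fl EBd2, and 333 and 329 CPM in KO ES cells, against 376 and 381 CPM in fl/fl ES cells, a change of -0.36 ± 0.04 in EBd2 (adjusted p = 3.69e-06). Mcm6 had 283 and 274 CPM in KO EBd2, against 360.4 and 363 CPM in fl/fl EBd2, and 424 and 432 CPM in KO ES cells, against 453 and 461 CPM in fl/fl ES cells, a change of -0.38 ± 0.04 in EBd2 (adjusted p = 2.56e-06). For both genes the KO EBd2 libraries lay below all others. Mcm10, which helps start the fork, changed by -0.23 ± 0.04 and Mcm8, a helicase of DNA repair, by -0.36 ± 0.07 in EBd2 (adjusted p = 0.000331 for Mcm10 and 0.000874 for Mcm8), and both calls were lost when libraries were scaled by total counts alone (adjusted p = 0.995 for Mcm10 and 0.129 for Mcm8).

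The make-up of the ring's RNA also differed between groups. Summed over the 6 genes, KO EBd2 had 1623 and 1574 CPM, fl/fl EBd2 2629 and 2631 CPM, KO ES cells 2205 and 2199 CPM and fl/fl ES cells 2543 and 2576 CPM. Mcm2 took 15.7% and 15.0% of the MCM2 to MCM7 counts in KO EBd2 and 21.3% and 21.6% in fl/fl EBd2, while in ES cells it took 15.9% and 15.8% in KO and 16.8% and 16.6% in fl/fl. Mcm4 took 16.4% and 16.2% in KO EBd2 and 12.7% in both fl/fl EBd2 libraries, and Mcm6 took 17.5% and 17.4% in KO EBd2 and 13.7% and 13.8% in fl/fl EBd2. In ES cells Mcm4 took 15.1% and 15.0% in KO and 14.8% in both fl/fl libraries, and Mcm6 took 19.2% and 19.7% in KO and 17.8% and 17.9% in fl/fl. The fl/fl EBd2 libraries were thus rich in Mcm2 and poor in Mcm4 and Mcm6 relative to the other 3 groups. These shares were worked out after the values of the genes were seen and are given without a test.

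**Figure D2:**
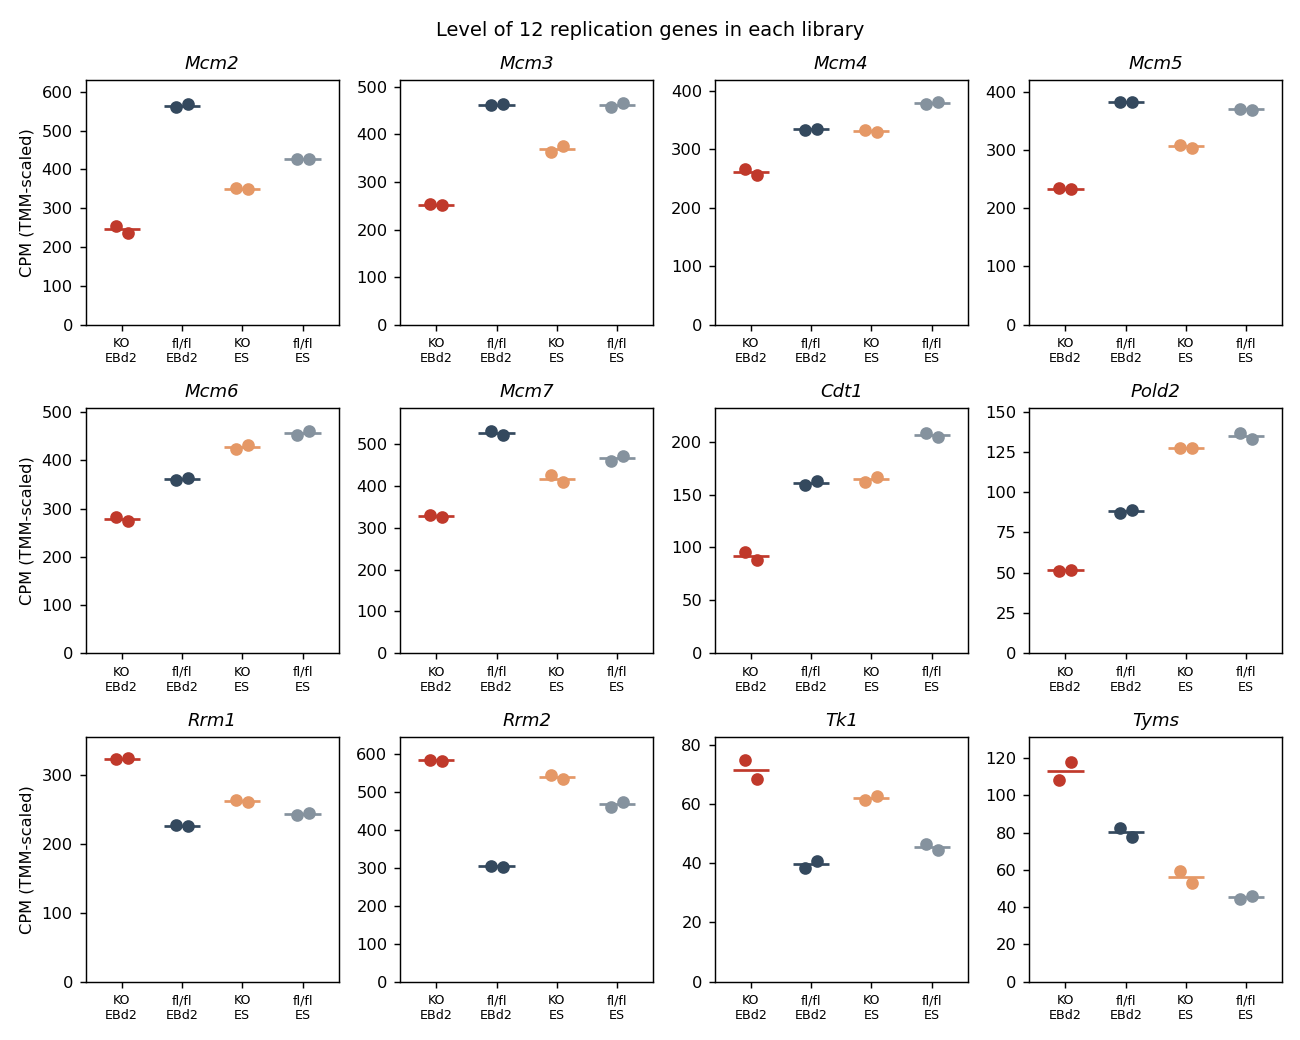
Level in CPM (TMM-scaled, linear axes from 0) of 12 replication genes in each of the 8 libraries; points are libraries and bars the mean of 2. In the panels of Mcm2 to Mcm7 both KO EBd2 libraries lie below all others, and in those of Rrm1, Rrm2, Tk1 and Tyms above all others.

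The 4 genes of deoxynucleotide supply went the other way. Rrm2, the small subunit of ribonucleotide reductase that limits its activity in S phase, had 583 and 582 CPM in KO EBd2, against 305 and 302 CPM in fl/fl EBd2, and 544 and 534 CPM in KO ES cells, against 461 and 472 CPM in fl/fl ES cells. The change in EBd2 was 0.94 ± 0.03 (adjusted p = 1.52e-09), with KO EBd2 the highest group and fl/fl EBd2 the lowest. Rrm1, the large subunit of the same enzyme, had 322 and 324 CPM in KO EBd2, against 227 and 226 CPM in fl/fl EBd2, and 264 and 261 CPM in KO ES cells, against 242 and 244 CPM in fl/fl ES cells. It too was highest in KO EBd2 and lowest in fl/fl EBd2, and changed by 0.51 ± 0.03 in EBd2 (adjusted p = 1.18e-07).

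Tk1, the thymidine kinase of S phase, had 74.8 and 68.4 CPM in KO EBd2, against 38.5 and 40.8 CPM in fl/fl EBd2, and 61.4 and 62.7 CPM in KO ES cells, against 46.4 and 44.5 CPM in fl/fl ES cells, a change of 0.85 ± 0.07 in EBd2 (adjusted p = 5.67e-07). Tyms, thymidylate synthase, had 109 and 118 CPM in KO EBd2, against 82.4 and 77.9 CPM in fl/fl EBd2, and 59.6 and 52.7 CPM in KO ES cells, against 44.6 and 45.97 CPM in fl/fl ES cells, a change of 0.50 ± 0.07 in EBd2 (adjusted p = 5.67e-05). For Tyms both EBd2 groups lay above both ES groups, which was not so for the other 3 genes.

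Set against each other within a library, where the scaling of libraries cancels, the 4 nucleotide genes together had 67.1 and 69.4 counts for every 100 counts of MCM2 to MCM7 in KO EBd2 and 24.8 and 24.6 in fl/fl EBd2. In ES cells the figures were 42.2 and 41.4 in KO and 31.2 and 31.3 in fl/fl. KO EBd2 was therefore the highest group and fl/fl EBd2 the lowest, and KO lay above fl/fl at both stages with no overlap. In each library Rrm2 made up 46.7% to 58.7% of the nucleotide counts and Rrm1 28.4% to 34.9%, so the nucleotide side is mostly ribonucleotide reductase. Both sides of the ratio differed between genotypes. The nucleotide genes summed to 1089 and 1093 CPM in KO EBd2, against 653 and 647 CPM in fl/fl EBd2. The MCM2 to MCM7 sums there were 1623 and 1574 CPM in KO, against 2629 and 2631 CPM in fl/fl. In ES cells the nucleotide sums were 929 and 911 CPM in KO, against 794 and 807 CPM in fl/fl. The MCM sums were 2205 and 2199 CPM in KO, against 2543 and 2576 CPM in fl/fl. A ratio shows that the 2 sets changed unequally, and it was chosen after the values of the genes were seen, so no test is given.

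**Figure D3:**
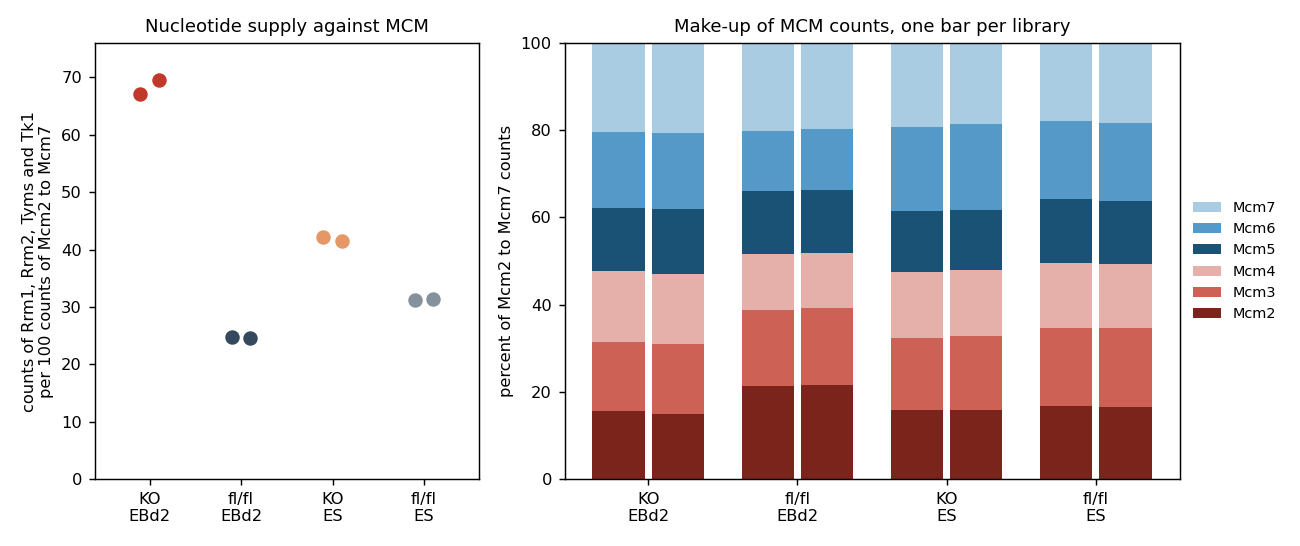
Left, counts of Rrm1, Rrm2, Tyms and Tk1, most of them from Rrm1 and Rrm2, for every 100 counts of Mcm2 to Mcm7, with a point per library. Right, the share of each of the 6 MCM genes in their summed counts, with a bar per library. The KO EBd2 libraries stand at 67.1 and 69.4 on the left, above the other 6, and Mcm2 has its largest share in fl/fl EBd2, at 21.3% and 21.6%.

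The promoters of genes from these 2 sets are shown because the sets moved in opposite directions. Each line gives the 200 bases directly before a start of the gene annotated by RefSeq (GRCm38.p6), 5′ to 3′ on the gene's strand, in lower case, with matches to the searched motifs in capitals. The E2F motif was searched as TTTCCCGC, TTTGGCGC, TTTCGCGC and TTTGCCGC, and the CCAAT box, bound by NF-Y, as CCAAT, both on either strand.
Mcm2 (chr6:88898781-88898980, minus strand): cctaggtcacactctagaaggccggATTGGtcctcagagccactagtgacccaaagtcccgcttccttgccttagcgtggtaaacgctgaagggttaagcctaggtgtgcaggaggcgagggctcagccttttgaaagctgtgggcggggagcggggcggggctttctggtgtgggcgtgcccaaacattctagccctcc
Mcm3 (chr1:20820313-20820512, minus strand): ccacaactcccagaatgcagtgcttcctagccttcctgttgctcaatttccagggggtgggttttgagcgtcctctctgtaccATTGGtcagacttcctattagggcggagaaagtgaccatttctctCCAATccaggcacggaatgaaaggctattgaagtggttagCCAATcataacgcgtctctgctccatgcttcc
Mcm5 (chr8:75109309-75109508, plus strand): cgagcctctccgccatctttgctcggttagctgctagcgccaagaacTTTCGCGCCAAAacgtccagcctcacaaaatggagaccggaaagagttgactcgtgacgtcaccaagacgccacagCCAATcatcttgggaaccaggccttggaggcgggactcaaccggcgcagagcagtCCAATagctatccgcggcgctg
Mcm6 (chr1:128359706-128359905, minus strand): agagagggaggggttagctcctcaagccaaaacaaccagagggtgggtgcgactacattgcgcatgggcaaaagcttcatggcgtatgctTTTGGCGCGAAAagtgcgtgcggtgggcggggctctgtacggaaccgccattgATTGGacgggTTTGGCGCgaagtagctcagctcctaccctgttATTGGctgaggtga
Mcm7 (chr5:138171884-138172083, minus strand): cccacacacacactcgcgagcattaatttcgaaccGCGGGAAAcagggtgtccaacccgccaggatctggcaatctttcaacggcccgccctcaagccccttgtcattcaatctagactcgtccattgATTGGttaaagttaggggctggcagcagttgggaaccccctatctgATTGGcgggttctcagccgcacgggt
Rrm1 (chr7:102441495-102441694, plus strand): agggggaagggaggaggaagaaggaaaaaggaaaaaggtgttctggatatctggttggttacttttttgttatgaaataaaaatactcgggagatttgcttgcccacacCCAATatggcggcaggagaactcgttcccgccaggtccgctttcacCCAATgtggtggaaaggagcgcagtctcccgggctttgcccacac
Rrm2 (chr12:24708054-24708253, plus strand): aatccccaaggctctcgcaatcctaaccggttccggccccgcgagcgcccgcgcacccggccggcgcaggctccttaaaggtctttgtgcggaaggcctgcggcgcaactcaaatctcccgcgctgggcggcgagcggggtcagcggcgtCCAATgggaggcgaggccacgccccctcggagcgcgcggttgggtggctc
The Mcm5 and Mcm6 sequences each hold a pair of E2F matches on opposite strands that overlap in the capitals, and Mcm6 holds another further on. Of the 2 annotated starts of Mcm7, the outer is shown, and the other had a CCAAT match and no E2F match.

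Within 250 bases before the start, an E2F match was found for 3 of the 5 MCM2 to MCM7 genes with a sequence in the table, Mcm5, Mcm6 and Mcm7, and for 0 of the 4 nucleotide genes. Counted by gene in the same way, 20.5% of the 44 replication genes with a sequence and 3.67% of the 11878 tested genes with one had an E2F match in any promoter. A CCAAT match was found for 59.1% of these replication genes and 40.6% of these tested genes. By promoter, an E2F match was in 16.7% of the 54 promoters of replication genes and in 1.86% of all 32851, and a CCAAT match in 51.9% and 33.8%. All 5 of the MCM2 to MCM7 genes with a sequence held a CCAAT match, as did Rrm1 and Rrm2, while the windows of Tk1 and Tyms held no match to either motif. Mcm2 (-1.20 in EBd2) and Mcm3 (-0.87), which fell most of the MCM2 to MCM7 genes, had no E2F match, while Mcm6 (-0.38) had 3. Whether matches go with the changes was not tested. A match describes letters only, and its absence says only that these letters are not in the window. Mcm4, Gins1, Gins2, Gins4, Gmnn, Pole, Prim2 and Rfc2 are named only.

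Among the genes that mark origins and load the helicase, Cdt1, the loader that is destroyed once S phase starts, had 95.4 and 88.5 CPM in KO EBd2, against 159 and 163 CPM in fl/fl EBd2, and 162 and 166 CPM in KO ES cells, against 208 and 204 CPM in fl/fl ES cells. It fell by 0.81 on the log2 scale in EBd2 (-0.81 ± 0.05, adjusted p = 5.14e-08), and KO EBd2 lay below all other libraries. Cdc6, which loads MCM together with CDT1, was called in the other direction. Cdc6 had 81.3 and 86.9 CPM in KO EBd2, against 66.1 and 69.8 CPM in fl/fl EBd2, and 88.03 and 90.1 CPM in KO ES cells, against 73.9 and 74.8 CPM in fl/fl ES cells, a change of 0.31 ± 0.05 in EBd2 (adjusted p = 0.000387). Gmnn, which encodes geminin, was not called in EBd2 (0.02 ± 0.06, adjusted p = 0.756), but was called higher with total counts alone (0.25).

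The 6 subunits of the origin recognition complex did not move together in EBd2, where 1 was called higher, 2 lower and 3 were not called. Orc3 had 59.8 and 63.5 CPM in KO EBd2, against 105 and 105 CPM in fl/fl EBd2, and 101 and 95.1 CPM in KO ES cells, against 102 and 98.3 CPM in fl/fl ES cells. KO EBd2 alone stood low, with a change of -0.77 ± 0.05 (adjusted p = 2.73e-07). Orc6 had 112 and 104 CPM in KO EBd2, against 72.9 and 70.5 CPM in fl/fl EBd2, and 108 and 101 CPM in KO ES cells, against 93.2 and 90.96 CPM in fl/fl ES cells, and here fl/fl EBd2 was the lowest group (0.59 ± 0.06, adjusted p = 4.68e-06). Orc1, the subunit whose level follows the cell cycle, changed by -0.57 ± 0.06 (adjusted p = 1.03e-05). Orc2, Orc4 and Orc5 had changes between -0.07 and 0.04 and were not called, while with total counts alone Orc2 (0.20), Orc4 (0.27) and Orc5 (0.16) were all called higher. Exons of Orc2 overlap those of Nif3l1 on the other strand over 29.8% of their length, and the labels do not say whether counting used the strand. Vps35 on the other strand overlaps 6.93% of the Orc6 exons and had 35922 counts over all libraries, against 11986 for Orc6.

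Of the 7 genes that activate the loaded helicase, 1 was called higher and 2 lower in EBd2. The subunits of the GINS complex differed among themselves, with Gins2 at -0.65 ± 0.06 (adjusted p = 3.61e-06), Gins3 at 0.47 ± 0.12 (adjusted p = 0.00409), and Gins1 and Gins4 not called. Gins4 lay close to the threshold (0.17 ± 0.07, adjusted p = 0.0606) and was called higher under 10 of the 18 alternatives, among them total counts alone (0.39) and the fits without fl/fl EBd2 lot 12 (adjusted p = 0.0414), KO ES lot 1 (adjusted p = 0.0296) or KO ES lot 12 (adjusted p = 0.0338). Gins1 (-0.23 ± 0.10, adjusted p = 0.0701) was called lower without fl/fl EBd2 lot 12 (adjusted p = 0.0179) and with no filter on low counts (adjusted p = 0.0373). The Gins3 call was lost without KO EBd2 lot 2 (adjusted p = 0.054), and 67.3% of the Gins2 exons are overlapped by Gse1 on the other strand, so that its counts may include reads of that gene. Dbf4, which activates the kinase CDC7, had 223 and 223 CPM in KO EBd2, against 248 and 246 CPM in fl/fl EBd2, and 228 and 222 CPM in KO ES cells, against 252 and 253 CPM in fl/fl ES cells. Its small fall in EBd2 (-0.15 ± 0.03, adjusted p = 0.00249) turned to 0.08 with total counts alone, where it was not called. Cdc7 and Cdc45 were not called between genotypes in EBd2, though with total counts alone both were called higher, Cdc7 at 0.21 and Cdc45 at 0.40. Cdc45 (0.17 ± 0.07, adjusted p = 0.0535) was also called higher without fl/fl EBd2 lot 12 (adjusted p = 0.0264) or fl/fl ES lot 2 (adjusted p = 0.0461) and under 8 of the 18 alternatives in all. Cdc7 had 47.5 and 54.6 CPM in KO EBd2, against 49.5 and 53.9 CPM in fl/fl EBd2, and 82.7 and 78.6 CPM in KO ES cells, against 73.8 and 72.4 CPM in fl/fl ES cells. Cdc45 had 53.5 and 53.1 CPM in KO EBd2, against 44.5 and 49.96 CPM in fl/fl EBd2, and 75.05 and 77.3 CPM in KO ES cells, against 68.7 and 73.5 CPM in fl/fl ES cells. Both genes were lower in the EBd2 groups than in the ES groups.

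All 9 genes of the polymerases and primase but Pola2 were called in EBd2, 2 higher and 6 lower. Pold1, the catalytic subunit of polymerase delta, had 107 and 105 CPM in KO EBd2, against 179.9 and 193 CPM in fl/fl EBd2, and 193 and 197 CPM in KO ES cells, against 226 and 216 CPM in fl/fl ES cells, a change of -0.82 ± 0.05 in EBd2 (adjusted p = 5.58e-08). Its partner Pold2 had 51.3 and 51.6 CPM in KO EBd2, against 87.03 and 89.1 CPM in fl/fl EBd2, and 127 and 128 CPM in KO ES cells, against 137 and 133 CPM in fl/fl ES cells, a change of -0.78 ± 0.05 in EBd2 (adjusted p = 8.66e-08). Both genes were lowest in KO EBd2 and highest in fl/fl ES cells, and for Pold1 the KO ES and fl/fl EBd2 libraries overlapped. Pold3 changed by -0.63 ± 0.06 (adjusted p = 2.3e-06), and Pole2, the accessory subunit of polymerase epsilon, by -0.78 ± 0.11 (adjusted p = 7e-05). Gm49384 overlaps 8.5% of the Pole2 exons on the same strand and had 876 counts over all libraries, against 3698 for Pole2. Pole, the catalytic subunit of polymerase epsilon, changed by -0.30 ± 0.05 (adjusted p = 0.000501), and this call was lost with total counts alone (adjusted p = 0.311).

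The primase genes moved against the polymerase genes. Prim1, the catalytic subunit of primase, had 88.8 and 86.9 CPM in KO EBd2, against 66.7 and 62.4 CPM in fl/fl EBd2, and 88.2 and 85.3 CPM in KO ES cells, against 79.6 and 81.6 CPM in fl/fl ES cells, with fl/fl EBd2 the lowest group (0.45 ± 0.05, adjusted p = 1.59e-05). Prim2 had 54.1 and 52.6 CPM in KO EBd2, against 50.3 and 41.7 CPM in fl/fl EBd2, and 42.4 and 41.9 CPM in KO ES cells, against 40.97 and 40.7 CPM in fl/fl ES cells. Its call in EBd2 (0.22 ± 0.08, adjusted p = 0.029) was lost without fl/fl EBd2 lot 12 (adjusted p = 0.41), KO EBd2 lot 1 (adjusted p = 0.119) or KO EBd2 lot 2 (adjusted p = 0.0656). Pola1, the catalytic subunit of polymerase alpha, had 101 and 101 CPM in KO EBd2, against 131 and 128 CPM in fl/fl EBd2, and 115 and 123 CPM in KO ES cells, against 111 and 112 CPM in fl/fl ES cells, a change of -0.36 ± 0.05 in EBd2 (adjusted p = 4.5e-05). Pola2, its accessory subunit, had 108 and 117 CPM in KO EBd2, against 108 and 111 CPM in fl/fl EBd2, and 119.9 and 118 CPM in KO ES cells, against 103 and 101 CPM in fl/fl ES cells. Its EBd2 groups overlapped, and it was called there only with total counts alone (0.27), and not by TMM scaling (0.04 ± 0.05, adjusted p = 0.499).

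Of the clamp and its loader, 2 genes were called higher and 4 lower in EBd2. Pcna, the sliding clamp, had 419.6 and 398 CPM in KO EBd2, against 378 and 358 CPM in fl/fl EBd2, and 354 and 343 CPM in KO ES cells, against 289.5 and 291 CPM in fl/fl ES cells. Its rise in EBd2 (0.15 ± 0.04, adjusted p = 0.00682) was not called without fl/fl EBd2 lot 12 (adjusted p = 0.0669) or KO EBd2 lot 1 (adjusted p = 0.0696). The near-identical pseudogene Pcna-ps2 had 130 counts over all libraries, against 42368 for Pcna. The 5 subunits of replication factor C, which opens the clamp, split. Rfc2 had 117 and 112 CPM in KO EBd2, against 80.3 and 75.6 CPM in fl/fl EBd2, and 109.8 and 107 CPM in KO ES cells, against 97.5 and 95.6 CPM in fl/fl ES cells, with fl/fl EBd2 the lowest group (0.55 ± 0.05, adjusted p = 1.65e-06). Rfc5 had 138 and 139.6 CPM in KO EBd2, against 201 and 209 CPM in fl/fl EBd2, and 135 and 128 CPM in KO ES cells, against 131 and 132 CPM in fl/fl ES cells, with fl/fl EBd2 the highest group (-0.56 ± 0.04, adjusted p = 3.36e-07). Rfc1, Rfc3 and Rfc4 were lower in KO EBd2, with changes between -0.35 and -0.24, and these 3 calls were lost with total counts alone. Genes on the other strand overlap 15.1% of the Rfc2 exons, 12.7% of those of Rfc4 and 10.7% of those of Rfc5. Over all libraries, Eif4a2 had 107255 counts, against 6970 for Rfc4, which it overlaps. Lat2 had 57, against 12595 for Rfc2, and Wsb2 had 8392, against 17687 for Rfc5.

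The single-strand binding genes had 2 higher and 0 lower in EBd2. Rpa1, the large subunit of replication protein A, had 278 and 291 CPM in KO EBd2, against 251 and 244 CPM in fl/fl EBd2, and 258 and 256 CPM in KO ES cells, against 248 and 248 CPM in fl/fl ES cells (0.20 ± 0.04 in EBd2, adjusted p = 0.000514). Rpa3 changed by 0.38 ± 0.07 (adjusted p = 0.000546). Rpa2 had 94.3 and 94.6 CPM in KO EBd2, against 98.5 and 99.00 CPM in fl/fl EBd2, and 95.2 and 93.4 CPM in KO ES cells, against 81.98 and 84.3 CPM in fl/fl ES cells, with fl/fl ES cells the lowest group. It was not called in EBd2 (-0.06 ± 0.04, adjusted p = 0.237), but was called higher there with total counts alone (0.16). On the lagging strand, Lig1, the ligase that joins its pieces, changed by -0.36 ± 0.03 (adjusted p = 2.26e-06) in EBd2. Fen1, the nuclease that trims them, had 107 and 105 CPM in KO EBd2, against 93.2 and 97.4 CPM in fl/fl EBd2, and 66.3 and 68.4 CPM in KO ES cells, against 60.9 and 64.8 CPM in fl/fl ES cells. Its call in EBd2 (0.15 ± 0.05, adjusted p = 0.0185) was lost without fl/fl EBd2 lot 1 (adjusted p = 0.13) or KO EBd2 lot 1 (adjusted p = 0.0954). An antisense gene lies over 78.8% of the Fen1 exons.

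Slbp, which binds the stem-loop of histone mRNAs, had 157 and 157 CPM in KO EBd2, against 100.3 and 99.3 CPM in fl/fl EBd2, and 122 and 129 CPM in KO ES cells, against 106 and 113 CPM in fl/fl ES cells. It was highest in KO EBd2 and lowest in fl/fl EBd2, and rose by 0.65 ± 0.05 in EBd2 (adjusted p = 3.55e-07). Ung, which removes uracil from DNA, fell in EBd2 (-0.45 ± 0.05, adjusted p = 5.75e-06). The 2 E2F factors on the list parted. E2f2 had 14.9 and 14.9 CPM in KO EBd2, against 4.32 and 4.38 CPM in fl/fl EBd2, and 13.6 and 12.4 CPM in KO ES cells, against 10.2 and 10.2 CPM in fl/fl ES cells, and its change in EBd2 was 1.77 ± 0.13 (adjusted p = 4.06e-07). It was the least abundant of the 52 genes per kilobase of exon in every group, and fl/fl EBd2 stood below the other 3 groups. E2f1 had 29.7 and 30.9 CPM in KO EBd2, against 37.4 and 38.7 CPM in fl/fl EBd2, and 61.1 and 66.4 CPM in KO ES cells, against 69.4 and 71.5 CPM in fl/fl ES cells, a change of -0.33 ± 0.08 in EBd2 (adjusted p = 0.00305) that was not called with total counts alone (adjusted p = 0.285).

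In ES cells the MCM genes were again lower and the nucleotide genes higher in KO, by smaller amounts. The largest fall of an MCM gene was that of Mcm3 (-0.32 ± 0.03, adjusted p = 8.63e-05), followed by Mcm2 (-0.29 ± 0.04, adjusted p = 0.000306), Mcm5 (-0.27 ± 0.03, adjusted p = 0.000141) and Mcm4 (-0.20 ± 0.03, adjusted p = 0.00129). Cdt1 fell by about as much as Mcm3 (-0.33 ± 0.04, adjusted p = 0.00014), and Dbf4 fell too (-0.16 ± 0.03, adjusted p = 0.00279). Tk1 rose most among the nucleotide genes (0.45 ± 0.05, adjusted p = 0.000173), and Rrm2 rose by 0.21 ± 0.03 (adjusted p = 0.000775). Pcna (0.26 ± 0.04, adjusted p = 0.000687), Cdc6 (0.26 ± 0.04, adjusted p = 0.0012) and Pola2 (0.22 ± 0.04, adjusted p = 0.00274) were also higher. These 11 genes kept their ES cell calls whichever library was left out and under each other scaling, filter and test tried, except that of the 11 only Tk1 was called in the test for changes beyond 1.2-fold.

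Of the 52 genes, 14 were called higher and 12 lower in KO ES cells, and 26 were not called, with 23.7% of all genes called, 10.9% higher and 12.8% lower. With total counts alone the split was 23 higher and 6 lower, and with upper-quartile factors 17 and 9. The number called was 15 without KO ES lot 1, 12 without fl/fl ES lot 1 and 16 without fl/fl ES lot 2. Over all genes tested, 3926 were called, against 1909 to 2233 when an ES library was left out. The median log2 change of the 52 genes was 0.05, and 0 genes changed by 2-fold or more, against 1.05% of all genes higher and 0.187% lower. Regardless of sign the median was 0.123 for the 52 genes and 0.164 over all genes, so the larger share called does not mean larger changes. A call also depends on how precisely a gene was measured, and the median standard error over all genes was 0.087. The libraries did not overlap for 25 genes higher and 16 lower in KO, against 32.3% of all genes in either direction.

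The other 15 ES cell calls, which were not all smaller than these, were each lost without at least 1 library. Mcm6 (-0.09 ± 0.03, adjusted p = 0.0481) was not called whichever of the 8 libraries was left out, with adjusted p from 0.0507 to 0.282. Mcm7 (-0.16 ± 0.03, adjusted p = 0.00659) was not called without KO ES lot 12 (adjusted p = 0.0712) or fl/fl ES lot 2 (adjusted p = 0.0876). Rrm1 (0.11 ± 0.03, adjusted p = 0.0185) was not called whichever of the 4 ES libraries was left out, with adjusted p from 0.0683 to 0.127. Tyms (0.31 ± 0.06, adjusted p = 0.00517) was not called without fl/fl ES lot 1 (adjusted p = 0.0537). So 4 of the 6 MCM genes and 2 of the 4 nucleotide genes were called in ES cells without regard to which library was left out.

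Lig1, Orc1 and Rfc4 lost their ES cell calls (lower) whichever of the 4 ES libraries was left out, with adjusted p from 0.0569 for Lig1 without KO lot 1 to 0.193 for Rfc4 without fl/fl lot 2. Orc4, Orc6, Rfc2 and E2f2 lost theirs (higher) without KO lot 1, fl/fl lot 1 or fl/fl lot 2, with adjusted p from 0.0516 for Rfc2 to 0.164 for Orc4. Pold1 (lower, -0.18 ± 0.04) was not called without KO lot 1 (adjusted p = 0.0593) or fl/fl lot 1 (adjusted p = 0.0683), and Rpa3 (higher, 0.21 ± 0.05) without KO lot 1 (adjusted p = 0.106) or fl/fl lot 1 (adjusted p = 0.137). Slbp (higher, 0.19 ± 0.04) was not called without KO lot 12 (adjusted p = 0.0559) or fl/fl lot 1 (adjusted p = 0.0744), and Rpa2 (higher, 0.18 ± 0.04) without fl/fl lot 1 (adjusted p = 0.0523).

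Across the 2 stages, 11 genes were called higher in KO at both, namely Cdc6, E2f2, Orc6, Pcna, Rfc2, Rpa3, Rrm1, Rrm2, Slbp, Tk1 and Tyms, against 7.03% of all genes. Another 12 were called lower at both, namely Cdt1, Dbf4, Lig1, Mcm2 to Mcm7, Orc1, Pold1 and Rfc4, against 9.22% of all genes. None of the 52 was called in opposite directions, against 1.36% of all genes higher in EBd2 and lower in ES cells and 1.6% the reverse. Neither stage called Cdc45, Cdc7, Gins1, Gins4, Gmnn, Orc2 or Orc5. The numbers higher and lower were 6 and 7 without KO ES lot 1, 4 and 7 without fl/fl ES lot 1, 7 and 7 without fl/fl ES lot 2, and 10 and 8 without KO ES lot 12. With total counts alone they were 21 and 5, with 2 genes in opposite directions. Pearson's r between the changes at the 2 stages, which share no library, was 0.793 over the 52 genes and 0.278 over all 16542. It is given as a description across genes, which are not independent replicates. Over all genes the median change in ES cells, regardless of sign, was 0.164, with a median standard error of 0.087. Such errors lower r and differ between genes with many and few counts, so the values of r cannot be compared directly. The shares called at both stages also depend on each gene's precision.

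The difference between the stages was itself tested as the interaction, the log2 change in EBd2 minus that in ES cells. It was called for 36 of the 52 genes, 10 positive and 26 negative, with 48.0% of all genes called, 22.4% positive and 25.7% negative. Values of 2-fold or more were called for E2f2, which was positive, and for 0 negative genes, against 9.76% and 5.3% of all genes. Under total counts alone, which shifts the median over all genes by 0.156, it was positive for 19 and negative for 16. Mcm2 had the most negative value of the MCM genes (-0.91 ± 0.05, adjusted p = 2.16e-07), and Rrm2 the most positive of the nucleotide genes (0.73 ± 0.05, adjusted p = 3.16e-07). The falls of Mcm2, Mcm3, Mcm5 and Mcm7 and the rises of Rrm1, Rrm2 and Tk1 were thus larger in EBd2 than in ES cells. Pold2 (-0.69 ± 0.06, adjusted p = 2.55e-06), Orc3 (-0.74 ± 0.07, adjusted p = 5.62e-06), Rfc5 (-0.57 ± 0.05, adjusted p = 7.42e-06) and Pole2 (-0.84 ± 0.13, adjusted p = 0.000355) fell in EBd2 and were not called between genotypes in ES cells. Tyms was not called in the interaction (0.19 ± 0.09, adjusted p = 0.115).

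Several interaction calls were lost without single libraries. Mcm6 kept its call, at -0.28 ± 0.05 (adjusted p = 0.000468), while Mcm4 (-0.16 ± 0.05, adjusted p = 0.0135) was not called without KO EBd2 lot 2 (adjusted p = 0.0502), KO ES lot 1 (adjusted p = 0.0501) or fl/fl ES lot 1 (adjusted p = 0.0518), nor with total counts alone (adjusted p = 0.921). Gins3 lost its interaction call when any library except KO EBd2 lot 1 was left out (adjusted p up to 0.243) and Orc5 when any except KO ES lot 1 was (up to 0.128). Pola2 lost it when any except KO EBd2 lot 2 and fl/fl EBd2 lot 1 was left out (adjusted p up to 0.121). Rpa1 lost it without KO EBd2 lot 2, fl/fl EBd2 lot 12, KO ES lot 12 or either fl/fl ES library (adjusted p up to 0.102), and Mcm10 without fl/fl EBd2 lot 12 (adjusted p = 0.0581) or KO ES lot 1 (adjusted p = 0.0533).

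Between stages, the genes were read within each genotype. In fl/fl, 12 were called higher and 23 lower in EBd2 than in ES cells, and 17 were not called, with 59.0% of all genes called, 28.9% higher and 30.1% lower. In KO, 10 were called higher and 28 lower in EBd2, and 14 were not called, with 64.8% of all genes called, 31.7% higher and 33.1% lower. The total counts scaling gave 12 higher and 24 lower in fl/fl and 19 higher and 24 lower in KO. The median change was -0.09 in fl/fl and -0.21 in KO. Regardless of sign it was 0.195 in fl/fl and 0.331 in KO, against 0.429 and 0.467 over all genes. In fl/fl, 0 genes were called higher by 2-fold or more and 1, E2f2, lower, against 7.47% and 9.49% of all genes. In KO, Tyms was called higher and Pold2 and E2f1 lower by that much, against 11.6% and 8.02% of all genes. The EBd2 and ES libraries did not overlap for 18 genes higher and 27 lower in fl/fl (38.4% and 40.5% of all genes), and for 14 higher and 32 lower in KO (41.2% and 41.8%).

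In fl/fl the MCM genes did not move as a set between stages, since Mcm2 (0.40 ± 0.04, adjusted p = 3.04e-06) and Mcm7 (0.18 ± 0.03, adjusted p = 0.000932) were higher in EBd2, Mcm4 (-0.18 ± 0.03, adjusted p = 0.000596) and Mcm6 (-0.34 ± 0.03, adjusted p = 4.77e-06) were lower, and Mcm3 and Mcm5 were not called. In KO all 6 were lower in EBd2, from -0.35 ± 0.03 for Mcm4 to -0.62 ± 0.03 for Mcm6 (adjusted p = 3.17e-06 and 2.97e-08). Rrm2 fell in fl/fl EBd2 (-0.62 ± 0.03, adjusted p = 3.45e-08). In KO EBd2 it was slightly higher (0.11 ± 0.03, adjusted p = 0.00809), a call lost without KO ES lot 12 (adjusted p = 0.072). Rrm1 was higher in KO EBd2 (0.30 ± 0.03, adjusted p = 4.95e-06), and so was Tk1 (0.20 ± 0.05, adjusted p = 0.00541), whose call was lost without KO EBd2 lot 1 (adjusted p = 0.0884). In fl/fl, Rrm1 (-0.10 ± 0.03, adjusted p = 0.0181) and Tk1 (-0.19, adjusted p = 0.0236) were lower in EBd2. Those calls were lost under 6 of the 18 alternatives for Rrm1 and 3 for Tk1. Tyms was higher in EBd2 in both genotypes (1.01 ± 0.06 in KO and 0.82 ± 0.07 in fl/fl).

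Several genes moved the same way between stages in both genotypes, and others in 1 genotype or in opposite directions. Pold2 fell by 1.31 on the log2 scale in KO (-1.31 ± 0.04, adjusted p = 5.85e-10) and by 0.61 in fl/fl (-0.61 ± 0.04, adjusted p = 1.45e-07). E2f1 fell in KO (-1.07 ± 0.06, adjusted p = 5.1e-08) and in fl/fl (-0.89 ± 0.06, adjusted p = 3.05e-07), as did Cdt1 (-0.84 ± 0.04 in KO and -0.36 ± 0.04 in fl/fl), Cdc45 (-0.52 ± 0.06 and -0.58 ± 0.06) and Cdc7 (-0.66 ± 0.06 and -0.50 ± 0.07). Rfc5 rose in fl/fl (0.64 ± 0.04, adjusted p = 8.73e-08) and was not called in KO (0.07 ± 0.04, adjusted p = 0.114). Rpa2 (0.25 ± 0.04) and Pola1 (0.21 ± 0.04) also rose in fl/fl, while Pola1 fell in KO (-0.24 ± 0.04, adjusted p = 0.000517). Slbp (0.32 ± 0.04), Prim2 (0.34 ± 0.07) and Rpa1 (0.15 ± 0.03) rose in KO. Slbp fell in fl/fl (-0.14, adjusted p = 0.0259), a call lost under 6 of the 18 alternatives. Orc3 (-0.67 ± 0.05, adjusted p = 3.59e-07) fell in KO. Fen1 (0.66 ± 0.05 in KO and 0.60 ± 0.05 in fl/fl) and Pcna (0.23 ± 0.04 and 0.34 ± 0.04) were higher in EBd2. E2f2 fell only in fl/fl by the test (-1.22 ± 0.13, adjusted p = 1.06e-05), against 0.20 ± 0.09 in KO (adjusted p = 0.0757), and its interaction was 1.42 ± 0.16 (adjusted p = 2.75e-05). Pold1 fell further in KO (-0.88 ± 0.04, adjusted p = 1.75e-08) than in fl/fl (-0.24 ± 0.04, adjusted p = 0.000395), a difference that is the interaction of -0.63 ± 0.06 (adjusted p = 7.38e-06). The stage comparisons of the 2 genotypes share no library, but each shares its libraries with the genotype comparisons above.

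**Figure D4:**
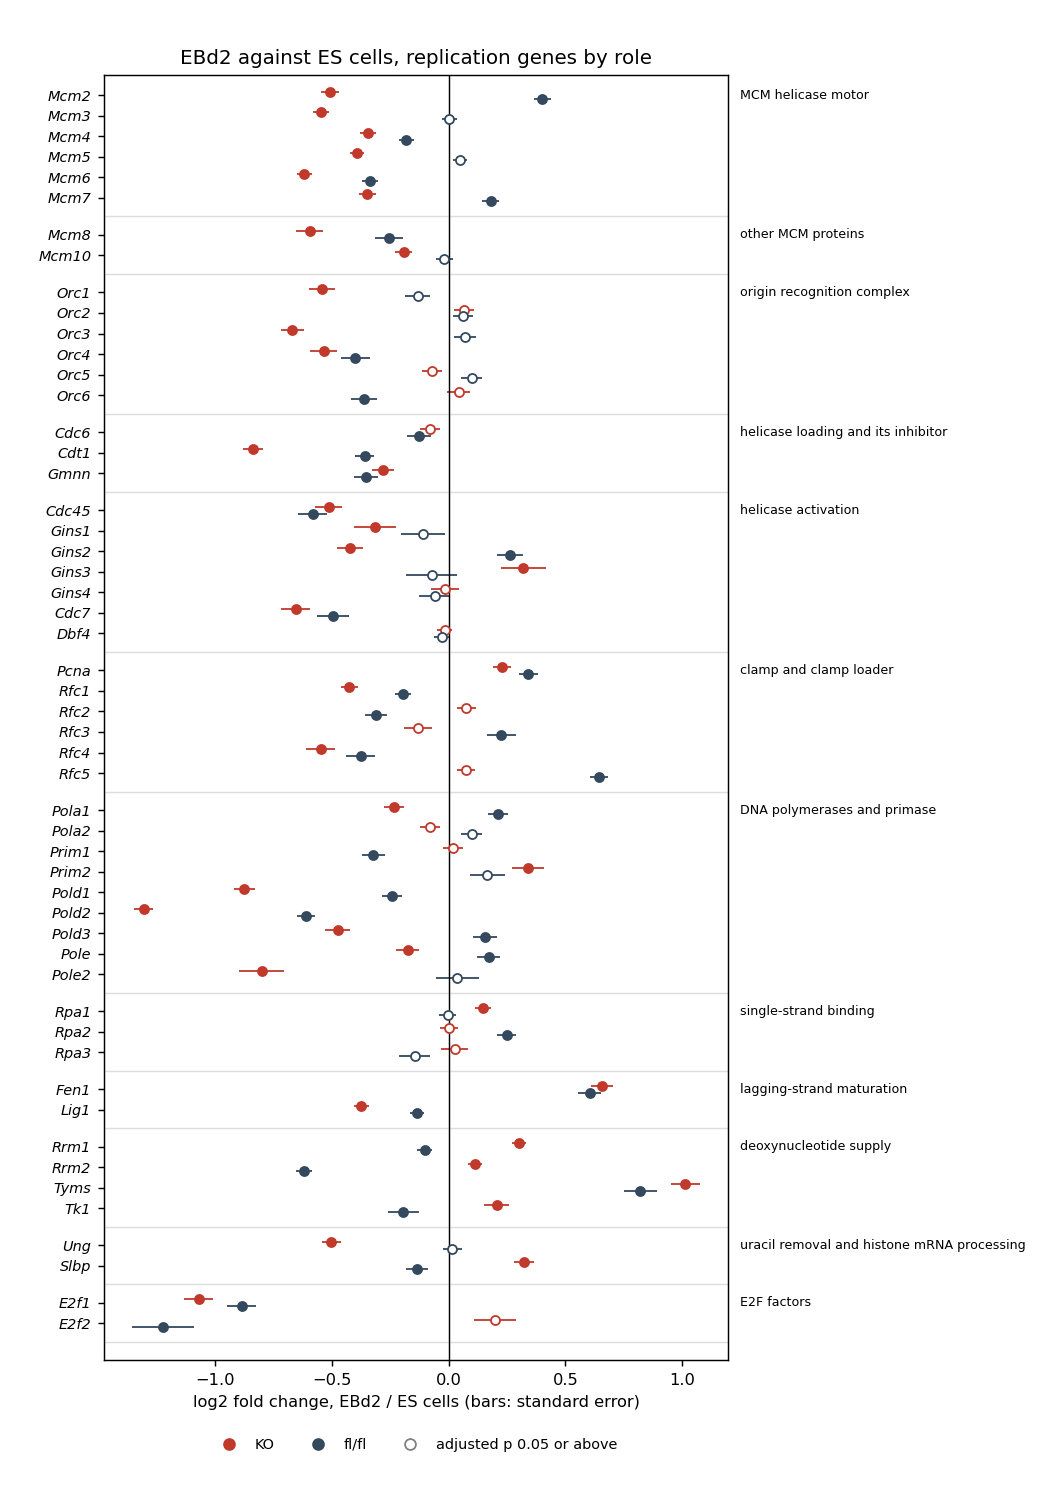
Log2 fold change of EBd2 over ES cells for each of the 52 genes, grouped by role, in KO (red) and fl/fl (dark blue). Points are estimates from 2 libraries per group, bars are standard errors, and open points have an adjusted p of 0.05 or above. All 6 MCM2 to MCM7 genes lie left of 0 in KO. In fl/fl Mcm2 and Mcm7 lie right of it, as do the open points of Mcm3 (0.003) and Mcm5 (0.05).

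Seen across the 4 groups, both KO EBd2 libraries were the lowest of all 8 for 25 of the 52 genes and the highest for 12, while 24.8% and 25.5% of all genes showed these patterns. Both fl/fl EBd2 libraries were the lowest for 13 genes and the highest for 11 (19.9% and 20.7% of all genes). In KO ES cells the numbers were 0 lowest and 6 highest (6.7% and 7.65%), and in fl/fl ES cells 7 lowest and 11 highest (11.4% and 13.6%). Levels per kilobase used the length of all annotated exons of a gene together. That length can exceed the RNA that is made, so the order of genes is approximate. On that scale Rrm2 was the most abundant of the 52 genes in KO EBd2 at 210.3 CPM per kilobase. Pcna at 170.2 and Mcm7 at 74.1 followed. In fl/fl EBd2 the order was Pcna at 153 CPM per kilobase, Mcm3 at 123, Mcm7 at 119 and Rrm2 at 109.6. In KO ES cells Rrm2 led at 195 CPM per kilobase, ahead of Pcna at 145 and Mcm3 at 98.4. In fl/fl ES cells Rrm2 led at 168 CPM per kilobase, and Mcm3 at 123 ± 1.8 and Pcna at 120.9 ± 0.4 (SD, n = 2) came next. Within groups the libraries were close, since the median coefficient of variation of the 52 genes was between 1.47% and 2.35%.

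Other genes of the pathway, 158 genes in 7 lists, were read in the same fit. In EBd2, 53 of the 158 were called higher and 65 lower in KO, and in ES cells 35 higher and 35 lower, against 30.7% higher and 31.5% lower of all genes in EBd2 and 10.9% and 12.8% in ES cells. The counts of the lists below are read against the same shares, and several lie near them, such as the other fork and polymerase subunits in EBd2 at 32.3% higher and 38.7% lower. Regardless of sign, the median change of the 158 genes was 0.377 in EBd2 and 0.119 in ES cells, against 0.505 and 0.164 over all genes. Regulators of licensing and origins had 12 higher and 8 lower of 24 in EBd2, and 9 and 8 in ES cells. Cyclin E, which drives entry into S phase and is a protein target of SCF ligases, rose at both stages. Ccne2 had 80.3 and 87.3 CPM in KO EBd2, against 18.9 and 18.9 CPM in fl/fl EBd2, and 31.2 and 30.9 CPM in KO ES cells, against 15.2 and 15.7 CPM in fl/fl ES cells (2.15 ± 0.07 in EBd2, adjusted p = 1.14e-09, and 1.01 ± 0.07 in ES cells, adjusted p = 8.5e-06). Ccne1 had 304 and 301 CPM in KO EBd2, against 159.9 and 155 CPM in fl/fl EBd2, and 221 and 222 CPM in KO ES cells, against 142 and 146 CPM in fl/fl ES cells (0.94 ± 0.04 in EBd2, adjusted p = 2.31e-09). Both cyclin E genes were higher in each KO library than in any fl/fl library. Cdkn1b, the inhibitor p27 that SKP2 marks for destruction, had 27.3 and 25.4 CPM in KO EBd2, against 52.6 and 55.5 CPM in fl/fl EBd2, and 56.9 and 53.2 CPM in KO ES cells, against 74.7 and 72.01 CPM in fl/fl ES cells (-1.04 ± 0.07 in EBd2, adjusted p = 2.4e-07). Cdkn1a, the inhibitor p21, rose in EBd2 (1.18 ± 0.04, adjusted p = 2e-09), as did the cyclin D gene Ccnd2 (3.24 ± 0.07, adjusted p = 6.1e-11).

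The ubiquitin ligases of replication factors had 7 higher and 6 lower of 17 in EBd2, and 2 higher and 4 lower in ES cells. The F-box genes Skp2 (0.92 ± 0.05 in EBd2, adjusted p = 6.35e-08, and 0.44 ± 0.04 in ES cells, adjusted p = 8.78e-05) and Ccnf (0.67 ± 0.03 in EBd2, adjusted p = 1.79e-08, and 0.10 ± 0.03 in ES cells, adjusted p = 0.036) were higher in KO, and Cks1b, the cofactor of SKP2, was lower in EBd2 (-0.69 ± 0.05, adjusted p = 2.05e-07). RB and E2F regulators had 9 higher and 5 lower of 19 in EBd2, and 5 and 4 in ES cells. E2f8, a repressing E2F, had 132 and 124 CPM in KO EBd2, against 39.4 and 42.00 CPM in fl/fl EBd2, and 76.9 and 80.1 CPM in KO ES cells, against 45.01 and 48.1 CPM in fl/fl ES cells (1.65 ± 0.06 in EBd2, adjusted p = 2.18e-09, and 0.75 ± 0.05 in ES cells, adjusted p = 8.5e-06). It was higher in each KO library than in any fl/fl library.

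Chromatin assembly at the fork had 4 higher and 12 lower of 17 in EBd2, led by Cdca7, an activator of the remodeller HELLS (-1.19 ± 0.05, adjusted p = 5.91e-09), and 0 higher and 5 lower in ES cells. Other fork and polymerase subunits had 10 higher and 12 lower of 31 in EBd2, and 8 and 7 in ES cells. The replication checkpoint had 4 higher and 10 lower of 21 in EBd2, and 3 and 3 in ES cells. The wider nucleotide supply list, which leaves out the 4 genes above, had 7 higher and 12 lower of 29 in EBd2, and 8 and 4 in ES cells. Its call with the smallest p in EBd2 was Dck, the deoxycytidine kinase (0.75 ± 0.05, adjusted p = 1.75e-07), followed by falls of Atic (-0.50 ± 0.04) and Mthfd1 (-0.51 ± 0.04), both of the folate and purine route. The list's share called higher in EBd2 was 24.1%, against 30.7% of all genes. Its median change of -0.07 is smaller than the 0.227 by which scaling by total counts alone shifts the median of all genes.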

How the data were processed

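Poly(A) RNA from mouse ES cells and EBd2 had been purified on spin columns and made into libraries with poly(A) beads, per the labels' protocols. The values used are the raw read counts per gene that the authors deposited. Reads were trimmed with Trim Galore 0.6.7 and the build was GRCm38 (mm10), per the submitters' processing notes, with the aligner, counter and strand setting not given in the sources used here.

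Genes were kept by filterByExpr of edgeR 4.0.16 (R 4.3.3, limma 3.58.1), scaled by TMM and fitted with a mean for each of the 4 groups over all 8 libraries, with 4 residual degrees of freedom and a common biological variation of 3.40%. The quasi-likelihood test, two-sided with Benjamini-Hochberg adjustment over 16542 genes, compared genotypes within stages, stages within genotypes and the interaction. A standard error is the log2 change divided by the root of F. The test was run on simulated counts with few changed genes and the same spread for all genes. That run does not check the scaling of these libraries or the spread of single genes. Lots were not used as a block, because only lot 1 is in all 4 groups. Alternatives were other size factors, other filters (none, or 50 counts in 2 libraries), DESeq2 1.42.0, a test beyond 1.2-fold, a lot block, thinning, fits of 4 libraries and each library left out.

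The 52 genes, their roles and the 7 pathway and 6 marker lists were chosen with earlier results of these data known. Values in every library are given for up to 8 genes per direction and comparison with the smallest adjusted p and for any past 2-fold, and up to 3 genes per pathway list are named, plus Ccne1, Ccne2, Skp2, Ccnf and Cdkn1b. A gene of these lists is not reported here. Exon overlaps and lengths are from the GRCm38 annotation, and promoters are from RefSeq.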

Additional observations from a re-analysis of the deposited data

Results flagged for a closer look

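The effect of genotype differed between the stages, by the interaction test, for 36 of the 52 replication genes. Values are the log2 change of KO over fl/fl in EBd2 minus that in ES cells. Negative values, meaning a lower KO to fl/fl ratio in EBd2, were found for the MCM genes Mcm2 (-0.91), Mcm3 (-0.55), Mcm7 (-0.53), Mcm5 (-0.44), Mcm8 (-0.34), Mcm6 (-0.28), Mcm10 (-0.17) and Mcm4 (-0.16). Among the polymerase genes they were found for Pole2 (-0.84), Pold2 (-0.69), Pold1 (-0.63), Pold3 (-0.63), Pola1 (-0.45), Pole (-0.35) and Pola2 (-0.18). The clamp loader genes Rfc5 (-0.57), Rfc3 (-0.36) and Rfc1 (-0.23), the origin genes Orc3 (-0.74), Orc1 (-0.41) and Orc5 (-0.17), and the loader Cdt1 (-0.48) were also negative. So were Gins2 (-0.68), Ung (-0.52), Rpa2 (-0.25) and Lig1 (-0.24).

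Positive values were found for E2f2 (1.42), Rrm2 (0.73), Slbp (0.46), Orc6 (0.41), Rrm1 (0.40), Tk1 (0.40), Gins3 (0.39), Rfc2 (0.39), Prim1 (0.34) and Rpa1 (0.15). All feeder, endoderm, streak and trophectoderm marker sums were higher in KO than in fl/fl EBd2, and the part of those cells in these differences was not tested.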

How the results depend on the processing

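Of the called genes, 28 of 42 in EBd2, 1 of 26 in ES cells, 17 of 35 between stages in fl/fl, 25 of 38 between stages in KO and 21 of 36 in the interaction were called under every alternative. Scaled by total counts alone, 25 genes were higher in KO EBd2, 23 higher and 6 lower in KO ES cells, 19 higher in EBd2 among KO, and 19 positive and 16 negative in the interaction. Some changes called under TMM scaling or under total counts alone turned positive under the latter. They were the EBd2 changes of Orc2 (0.20), Orc5 (0.16), Cdc7 (0.21), Dbf4 (0.076) and Rpa2 (0.16) and the stage change of Dbf4 in KO (0.13). Changes called under neither scaling are left out. In the test for changes beyond 1.2-fold, the calls in ES cells were 1 (1 higher and 0 lower), with 441 over all genes, and Skp1a at -0.22 was not called (adjusted p = 1). That test called 17 genes between stages in fl/fl (5 higher and 12 lower, with 6423 over all genes), 25 in KO (2 higher) and 21 in the interaction (6 positive and 15 negative). Thinning all libraries to the smallest total left 2158 calls over all genes in ES cells.

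With the lot as a replicate block, 41 genes were called in EBd2, 19 in ES cells (12 higher and 7 lower, with 2236 over all genes), 30 and 35 between stages in fl/fl and KO, and 29 in the interaction. Only lot 1 is in all 4 groups, and deviations of lot 1 libraries correlated at -0.09 to 0.149 between groups over 11449 genes. The highest value was that of fl/fl EBd2 and KO ES cells, which share lots 1 and 12. KO EBd2 and fl/fl ES cells, which share lots 1 and 2, were at -0.00806. In the remaining pairs lot 1 is set against different lots, so these values cannot decide whether lots pair the samples.

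With each library left out in turn, the ES cell calls ranged from 12 to 26 (5 to 15 higher and 7 to 11 lower), with 1909 to 3958 over all genes. In EBd2 they ranged from 39 to 43. A group of 1 library was then assumed to vary like the others. The cause of these shifts was not tested.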
